A study of Mus musculus with 4 samples.

Results

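Expression of 10 genes of the hypoxia response and of vascular growth factor signalling was examined in cells of the mouse hindlimb 1 week after injury. The genes were taken by name from the 27998 genes of the count tables and all 10 were found: the oxygen-response genes Hif1a, Egln3 and Bnip3, the secreted factors Adm, Vegfa and Angpt2, and the receptors Kdr, Flt1, Nrp1 and Tek. The choice did not use measured values of these libraries as a threshold, but earlier results of the same data were known when it was made. Single cells were profiled by 3′ gene expression sequencing in 4 libraries. The slie/slie injured library came from mice homozygous for the spontaneous slie deletion of Ddr2, which encodes a collagen receptor, and the slie/slie uninjured library from the contralateral limb of such mice. The control injured and control uninjured libraries came from their littermates in the same way. The injury was a burn of the back over 30% of the body surface combined with cutting of the left Achilles tendon. The right limb carries no tenotomy but belongs to a burned animal, so all 4 libraries share the burn. Cells of 2 mice were pooled in each library, and the tissue taken was the Achilles tendon with what surrounds it, from the gastrocnemius to the heel, dissociated with enzymes. The deletion is carried by every cell of the animal and is not restricted to a cell type.

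Hypoxia-inducible factor 1 alpha, the product of Hif1a, is held at a low level by prolyl hydroxylation when oxygen is plentiful and otherwise pairs with Arnt to switch on genes for glycolysis, mitochondrial turnover and vessel growth. Egln3 encodes a prolyl hydroxylase that is itself induced by the factor, Bnip3 a mitochondrial outer membrane protein that promotes mitophagy, and Adm the vasodilator peptide adrenomedullin. Vegfa acts on endothelial cells through the tyrosine kinases Kdr (VEGFR2, the main signalling receptor) and Flt1 (VEGFR1, which can act as a decoy), with Nrp1 as co-receptor. Angpt2 is a ligand of the receptor tyrosine kinase Tek (Tie2) that in most settings counteracts vessel stabilisation by Angpt1. In ectopic bone formation after burn and tenotomy, hypoxic signalling and vessel growth belong to the early phase, which is the week sampled here.

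After removal of barcodes with fewer than 200 genes or more than 20% mitochondrial UMIs (unique molecular identifiers, each counting 1 captured RNA molecule), 246 slie/slie injured, 184 slie/slie uninjured, 751 control injured and 60 control uninjured cells were left. They held 1010828, 1097002, 4032783 and 242888 UMIs in that order. Ddr2 itself checked the labels: over all barcodes, 0 UMIs were found in the slie/slie injured library against 116 in the control injured library, or 25.7 counts per 1000000 UMIs (CPM). In the uninjured limbs 2 UMIs were found in the slie/slie library (1.30 CPM, 0.16 to 4.69) and 5 in the control library (8.62 CPM, 2.80 to 20.1). The level was lower in the slie/slie library, but from few UMIs. The overlap of these separate intervals does not show equal levels, so it decides nothing on this pair of labels. The cells fell into 18 clusters, formed without the 10 genes. They were named from marker lists as fibroblast-like (115, 72, 306 and 5 cells in the library order above), pericyte or smooth muscle-like (19, 21, 54 and 13), endothelial-like (5, 53, 26 and 17), neutrophil-like (42, 3, 147 and 0), keratinocyte-like (25, 3, 38 and 0) and smaller classes. All 12 endothelial markers were detected in the endothelial-like cells of each library. Of the 8 tenocyte markers, 7 were detected in the fibroblast-like cells of the slie/slie injured, slie/slie uninjured and control injured libraries and 2 in the 5 control uninjured ones. Detection means a UMI in the class sum and does not set classes apart. The slie/slie uninjured endothelial-like cells also had all 12 pericyte and all 12 fibroblast markers (1614 and 1215 CPM), beside 9056 CPM of endothelial and 20046 CPM of erythroid markers. Fibroblast-like cells of both injured libraries had all 6 chondrocyte markers. In 61.8% of slie/slie injured, 12.0% of slie/slie uninjured, 50.5% of control injured and 5.0% of control uninjured cells, less than 0.5% of UMIs were mitochondrial. One barcode of the unfiltered tables was shared, between the control libraries, and none after filtering.

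Levels are given in CPM, the counts of a gene scaled to 1000000 summed UMIs of a library or class, with exact Poisson intervals, and ratios with exact binomial intervals, all at 95%. These intervals cover counting error only. Each group is 1 library, so no statistical test of a condition was possible, no p-value is given, and no spread between animals is known. A gene was counted as higher or lower where it had at least 10 UMIs over both libraries, a ratio of at least 1.5-fold, and an interval that excluded 1. UMIs of a 3′ assay are compared for the same gene between libraries and classes, not between genes.

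Between the injured limbs, none of the 10 genes was counted as higher in slie/slie cells than in control cells and 5 were counted as lower: Egln3, Adm, Vegfa, Flt1 and Angpt2. Among the 12641 genes with enough UMIs in this comparison, 7.06% were counted as higher and 6.68% as lower. The median log2 ratio of the 10 genes was -0.89, against -0.0038 over all of these genes. The other 5 genes spread between a Tek ratio of 0.56 and an Nrp1 ratio of 1.06. Sums over all cells mix cell classes, and in them fewer cells of a type and less RNA per cell cannot be told apart. Endothelial-like cells made up 2.03% of slie/slie injured and 3.46% of control injured cells, against 28.8% of slie/slie uninjured and 28.3% of control uninjured cells. These are shares of cells and not of UMIs, by which the sums are weighted. When each cell was thinned to 500 UMIs and shallower cells were left out, 0 of the 10 genes were counted as lower, and with all barcodes kept 8 were. With all barcodes, haemoglobin was 33.3% of slie/slie injured and 15.5% of control injured UMIs, against 5.06% and 6.09% after filtering. A larger haemoglobin share lowers the CPM of every other gene, so the 8 do not show a wider genotype difference.

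**Figure D1:**
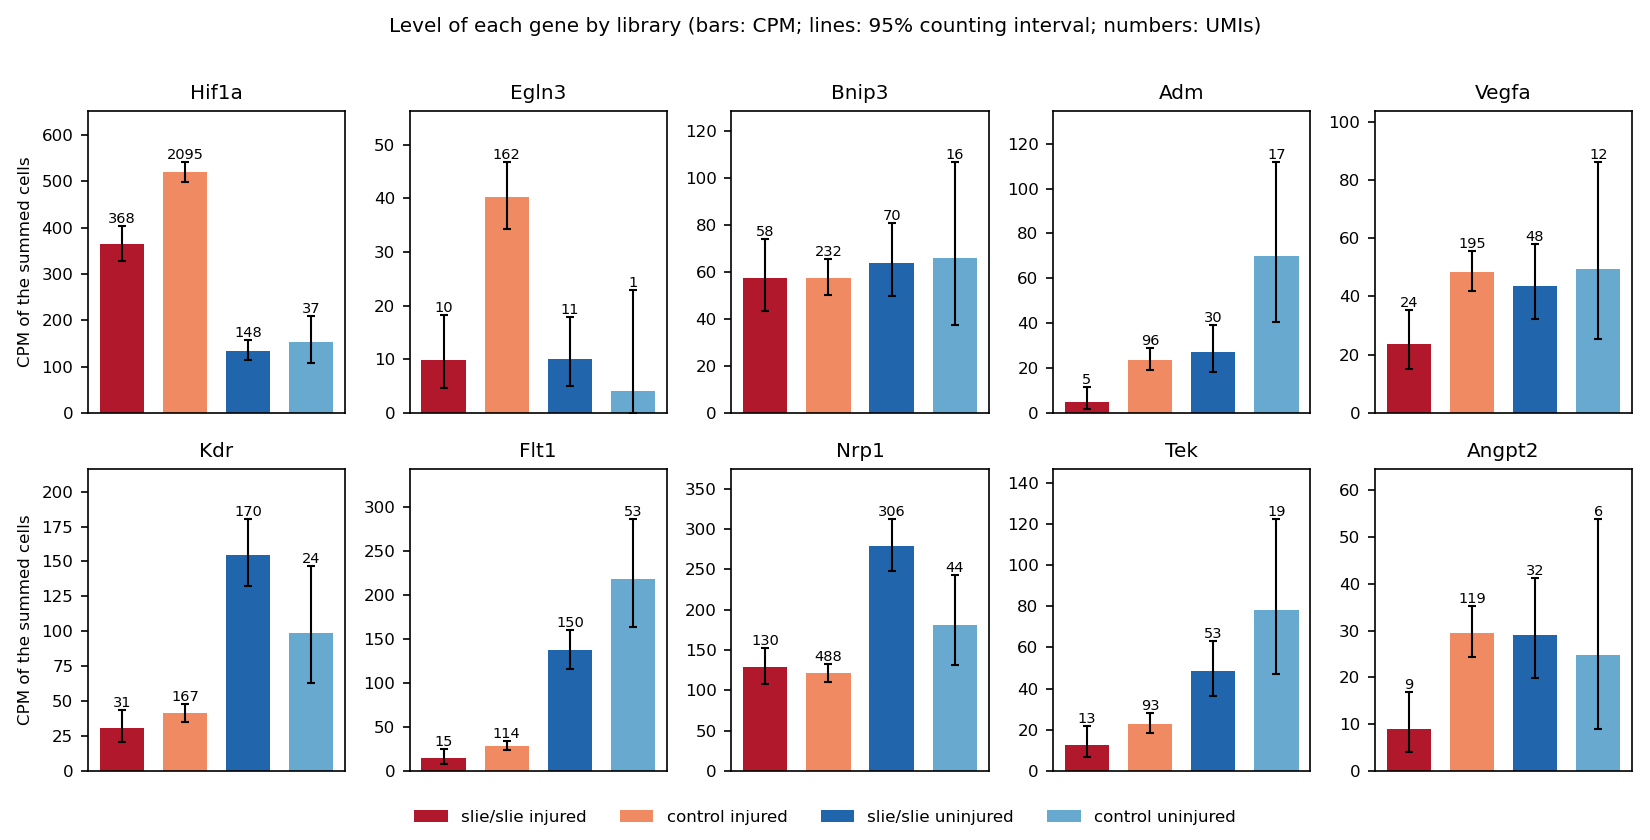
Level of each of the 10 genes (1 panel each, vertical axis from 0) in the 4 libraries, as CPM of the summed UMIs of all filtered cells; bars are libraries, lines are exact Poisson 95% intervals of counting error, and the numbers above are UMIs. Hif1a is higher in both injured libraries than in both uninjured ones, while Flt1, Kdr and Tek are lower in both.

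Hif1a (chr12:73901375-73947530 in mm10) had 364 CPM in slie/slie injured cells (interval 328 to 403; 368 UMIs in 38.6% of cells) and 519 CPM in control injured cells (497 to 542; 2095 UMIs in 54.1% of cells). In the uninjured limbs it had 135 CPM in slie/slie cells (114 to 158; 148 UMIs in 35.9% of cells) and 152 CPM in control cells (107 to 210; 37 UMIs in 18.3% of cells). Hif1a was counted as higher in the injured limb of both genotypes. It was 2.70-fold higher in slie/slie injured than slie/slie uninjured cells (2.22 to 3.29) and 3.41-fold higher in control injured than control uninjured cells (2.47 to 4.86). Between the injured libraries its ratio was 0.70 (0.63 to 0.78), lower in slie/slie cells but short of 1.5-fold. In endothelial-like cells it had 503 CPM in slie/slie injured and 373 CPM in control injured cells, against 114 CPM in slie/slie uninjured and 69.8 CPM in control uninjured cells. Fibroblast-like cells held 182 of the 368 slie/slie and 1102 of the 2095 control UMIs.

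Within fibroblast-like cells the genotype difference in Hif1a was larger. The 115 slie/slie injured cells had 431 CPM and the 306 control injured cells 769 CPM, 1.79-fold lower in slie/slie cells (1.53 to 2.10), in a comparison in which 5.99% of 9964 genes were counted as lower and 5.79% as higher. Hif1a was the only one of the 5 members with enough UMIs in these cells to be counted. By cluster, the level was 440 CPM in slie/slie and 580 CPM in control cells of the largest fibroblast-like cluster, 625 and 884 CPM in the next, and 231 and 610 CPM in the third. In one more, small cluster it was 1298 CPM in slie/slie cells and 933 CPM in control cells, from 6 and 21 UMIs. The direction was therefore shared by 3 of these 4 clusters. The slie/slie fibroblast-like cells were also shallower, with a median of 793 UMIs against 1376.5 in control cells, and their 3 deepest cells held 43.3% of all their UMIs, against 12.9% in control cells. In the same cells 7 of 13 genes of a dissociation stress list were counted as lower in slie/slie cells and 0 as higher (median log2 ratio -1.12, against -0.06 over all genes), among them Fos with 2 UMIs in slie/slie and 132 in control cells and Egr1 with 9 and 122 UMIs. Less than 0.5% mitochondrial UMIs were found in 56.5% of slie/slie and 45.8% of control fibroblast-like cells. The part of depth, dissociation and RNA quality in the Hif1a difference was not tested.

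Targets of the factor did not follow one direction in fibroblast-like cells. Of 31 other hypoxia response targets with enough UMIs, 3 were counted as higher in slie/slie injured fibroblast-like cells and 1 as lower, with a median log2 ratio of 0.06 against -0.06 over all genes. Those higher were Pgk1, a glycolytic kinase (62 UMIs in slie/slie and 84 in control cells, 2.50-fold), Slc2a1, the glucose transporter GLUT1 (31 and 33 UMIs, 3.18-fold), and Car12, a carbonic anhydrase (30 and 57 UMIs, 1.78-fold). The lower one was Plod2, a collagen lysyl hydroxylase, with 185 CPM in slie/slie and 333 CPM in control cells. Vegfa (13 and 69 UMIs) and Bnip3 (15 and 67 UMIs) had ratios of 0.64 (0.32 to 1.17) and 0.76 (0.40 to 1.34), intervals that hold 1 and leave room for a decrease of more than 2-fold.

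In the control injured limb, keratinocyte-like cells held most UMIs of Egln3 (132 of 162) and Adm (64 of 96), and 49 of 232 of Bnip3, which had more in fibroblast-like cells (67). Their promoters are shown because the same keratinocyte-like cell was the richest of the library in all 3 genes. The 300 bases around the RefSeq transcript start (build GRCm38.p6) of Egln3 (chr12:54203825-54204124, minus strand), Adm (chr7:110627407-110627706, plus strand) and Bnip3 (chr7:138909457-138909756, minus strand) read, on each gene's own strand:
Egln3: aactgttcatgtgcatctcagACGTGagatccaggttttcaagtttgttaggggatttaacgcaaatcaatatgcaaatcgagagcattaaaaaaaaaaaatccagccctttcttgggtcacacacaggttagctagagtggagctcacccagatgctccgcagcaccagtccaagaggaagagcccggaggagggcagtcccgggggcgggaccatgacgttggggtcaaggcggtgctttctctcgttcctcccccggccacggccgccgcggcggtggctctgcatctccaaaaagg
Adm: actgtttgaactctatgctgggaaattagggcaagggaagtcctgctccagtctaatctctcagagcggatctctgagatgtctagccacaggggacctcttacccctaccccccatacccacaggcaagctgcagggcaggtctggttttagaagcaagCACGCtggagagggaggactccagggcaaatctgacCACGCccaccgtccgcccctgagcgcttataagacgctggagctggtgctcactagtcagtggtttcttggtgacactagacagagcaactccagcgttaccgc
Bnip3: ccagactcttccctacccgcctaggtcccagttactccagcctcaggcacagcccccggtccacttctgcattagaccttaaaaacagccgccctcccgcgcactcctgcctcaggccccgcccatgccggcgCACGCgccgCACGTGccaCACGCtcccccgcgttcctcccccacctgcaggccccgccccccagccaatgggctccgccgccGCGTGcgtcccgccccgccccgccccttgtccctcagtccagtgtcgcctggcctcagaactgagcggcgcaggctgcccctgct
Capitals mark ACGTG and GCGTG, the core letters of the hypoxia response element, searched on both strands, so that CACGT and CACGC also count. The Egln3 window held 1 match, the Adm window 2 and the Bnip3 window 5, where the palindrome CACGTG counts on each strand. RefSeq gave 10 windows for 9 of the 10 genes, of which 8 had a match in at least 1 window. Of 32851 mouse promoters of this length 43.8% had a match, a share of single windows and not of genes. The Tek window and the first of the 2 Vegfa windows, at the 5′ end of the gene, held none. Vegfa is counted only through its second window (chr17:46025114-46025413), which lies inside the gene. A match is a description of these letters and not a bound site.

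Egln3 (chr12:54178981-54203860) had 10 UMIs in slie/slie injured cells (9.89 CPM) and 162 in control injured cells (40.2 CPM), 4.06-fold lower in slie/slie cells (2.15 to 8.63). The uninjured libraries held 11 UMIs in slie/slie cells and 1 in control cells. Of the 10 slie/slie injured UMIs, 5 lay in endothelial-like and 4 in neutrophil-like cells. Of the 162 control injured UMIs, 132 lay in 7 of 38 keratinocyte-like cells, and 104 of them in a single cell of 50806 UMIs. The 25 slie/slie injured keratinocyte-like cells held 0 UMIs of Egln3, at a depth at which 3 counts are 22.1 CPM, against 465 CPM in the control cells. Within the control injured library these cells had 58.1-fold more Egln3 than the other cells (38.8 to 89.4), or 17.2-fold without its richest cell, where 10.4% of genes were counted as higher. Bnip3 was 3.53-fold higher there, but its log2 ratio was -1.09 without its richest cell, -0.63 when thinned, -1.19 with equal weights and -2.87 without the 3 deepest cells. Set against 3 counts, Egln3 of keratinocyte-like cells was 21.0-fold lower in slie/slie cells, and 5.42-fold lower when the richest control cell was left out. Over all cells the difference was 2.05-fold without the richest cell of each library.

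The same control cell carried Adm, Bnip3 and Vegfa as well. It held 50 UMIs of Adm, 44 of Bnip3, 14 of Vegfa and 27 of Hif1a, and no mitochondrial UMI. A second control keratinocyte-like cell of 43896 UMIs held 23 UMIs of Egln3, 14 of Adm, 3 of Bnip3, 9 of Vegfa and 9 of Hif1a. Cells of similar depth existed in the slie/slie injured library: one of 54860 UMIs had 0 of Egln3, Adm and Bnip3, 3 of Vegfa and 13 of Hif1a, and one of 38490 UMIs had 0 of Egln3, Adm and Vegfa, 1 of Bnip3 and 10 of Hif1a. The first of these belonged to the other of the 2 keratinocyte-like clusters, in which control cells held 0 UMIs of Egln3 and Adm too.

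Over the whole class, Adm had 0 UMIs in slie/slie and 64 in control keratinocyte-like cells (in 2 cells), 10.2-fold lower set against 3 counts. Bnip3 had 1 and 49 UMIs (23.4-fold lower, 4.0 to 942), and Vegfa 4 and 26 UMIs (3.10-fold lower, 1.08 to 12.2). Hif1a did not share this pattern, with 199 CPM in slie/slie and 225 CPM in control keratinocyte-like cells (ratio 0.89, 0.54 to 1.41). So 4 of the 5 genes measurable in these cells were counted as lower in slie/slie cells and 0 as higher, against 5.14% lower and 10.9% higher of 4570 genes. Egln3, Adm and Bnip3 had 0, 0 and 1 slie/slie UMIs and reached the limit of 10 UMIs only through control cells. They could therefore not be counted as higher, and the count of 4 adds nothing to the single values. Without the richest cell of each gene 2 genes were counted as lower, and with the 3 deepest cells of each class left out, or cells thinned to 500 UMIs, 0 were. Kdr, Flt1, Nrp1, Tek and Angpt2 had 0 UMIs in all keratinocyte-like cells.

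Other hypoxia response targets were lower in slie/slie injured keratinocyte-like cells as well: 11 of 23 were counted as lower and 0 as higher, with a median log2 ratio of -0.73 against 0.25 over all genes. They included the glycolytic enzymes Gapdh (959 CPM in slie/slie and 3347 CPM in control cells) and Ldha (443 and 1081 CPM), and Higd1a, a mitochondrial protein induced by low oxygen (347 and 922 CPM). Without the deepest control cell 9 of the 23 were counted as lower, with a median of -0.22 against 0.18, where 3.98% of 4320 genes were lower and 7.75% higher. Cells with less than 0.5% mitochondrial UMIs made up 84.0% of slie/slie and 81.6% of control keratinocyte-like cells. Fos (2 and 35 UMIs) and Ier3 (6 and 78 UMIs) of the dissociation list were lower in slie/slie cells too, and their part in the result was not tested. The target list was not split by the 2 keratinocyte-like clusters. The smaller, with 4 slie/slie and 6 control injured cells, was led by Scd1, Elovl6 and Rarres1, with 0 keratinocyte markers among its leading genes. It held a slie/slie cell of 54860 UMIs. The 3 deepest cells held 77.5% of slie/slie and 47.3% of control UMIs of the class. The part of this mix of cells in the result was not tested.

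**Figure D2:**
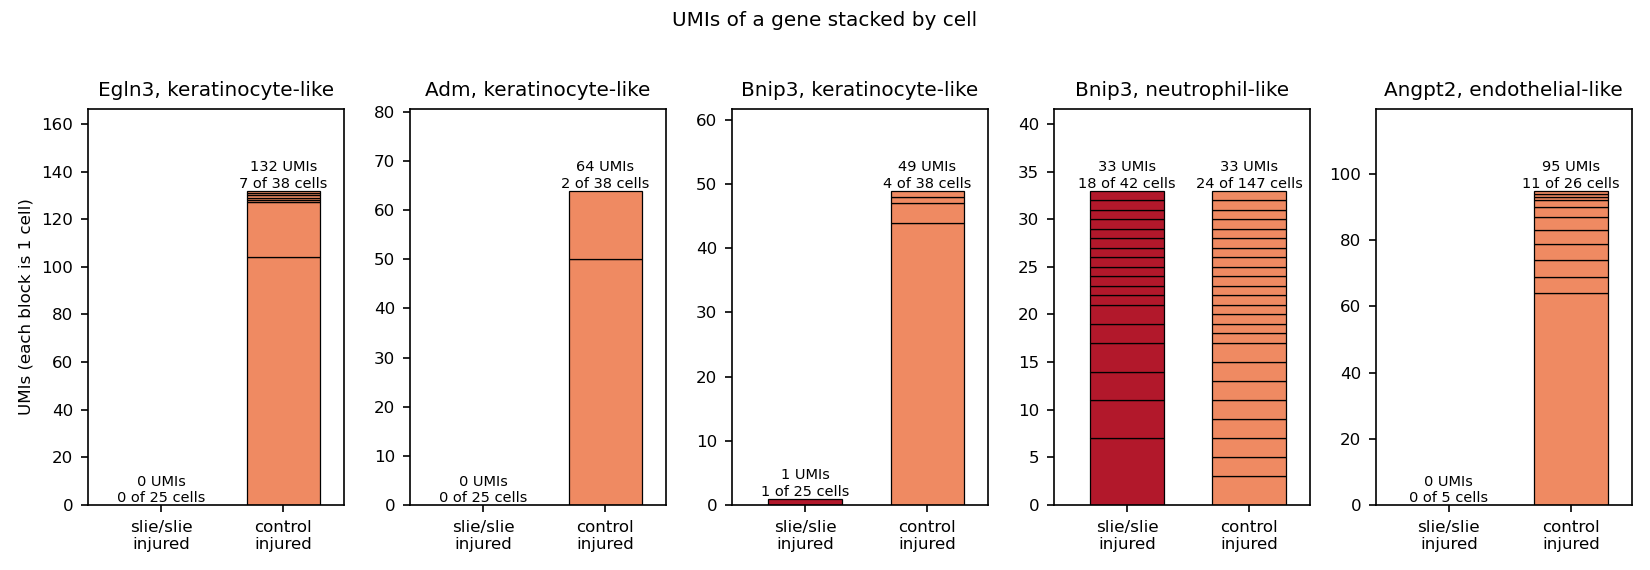
UMIs (vertical axis) of Egln3, Adm and Bnip3 in keratinocyte-like, Bnip3 in neutrophil-like and Angpt2 in endothelial-like cells of the slie/slie and control injured libraries; each block of a bar is 1 cell and its height that cell's UMIs, with the sum and the number of cells above. In the control library 1 cell gives 104 of 132 Egln3, 50 of 64 Adm and 64 of 95 Angpt2 UMIs, while Bnip3 in neutrophil-like cells is spread over 18 slie/slie and 24 control cells.

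Adm (chr7:110627661-110629820) had 5 UMIs in slie/slie injured and 96 in control injured cells, 4.95 and 23.8 CPM, 4.81-fold lower in slie/slie cells (1.99 to 15.2). Without the richest cell of each library the value was 11.3-fold, from 1 UMI in slie/slie and 46 in control cells. A count of 1 is under the 3 counts used as a limit, so this value shows no larger difference. The main source differed between libraries. In slie/slie injured cells 4 of the 5 UMIs came from 1 fibroblast-like cell, and in control injured cells 64 of 96 from keratinocyte-like and 18 from endothelial-like cells, 12 of these 18 in 1 cell. In slie/slie uninjured cells 23 of 30 UMIs were in fibroblast-like cells, and in control uninjured cells all 17 were in lymphatic endothelial-like cells, 13 of them in 1 cell of 4056 UMIs. Its receptor genes are Calcrl and the Ramp family, which encode the receptor and its accessory subunits, and Ackr3, a scavenger receptor. Of these 5 genes, 1 was counted as lower in slie/slie injured than control injured cells, Ramp3 with 3 and 87 UMIs, and 0 as higher. Over all genes 6.68% were lower and 7.06% higher.

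In neutrophil-like cells the genotype difference ran the other way for Bnip3 and Hif1a. Bnip3 (chr7:138890836-138909519) had 33 UMIs in 18 of 42 slie/slie injured neutrophil-like cells (431 CPM) and 33 UMIs in 24 of 147 control injured ones (148 CPM), 2.92-fold higher in slie/slie cells (1.74 to 4.87) and 2.56-fold without the richest cell of each library. Hif1a had 40 UMIs (523 CPM) in slie/slie and 72 UMIs (323 CPM) in control neutrophil-like cells, 1.62-fold higher (1.07 to 2.42) and 1.49-fold without the richest cells. These were 2 of the 4 genes measurable here, and 5.84% of 3012 genes were counted as higher and 7.2% as lower. Egln3 (4 and 18 UMIs) had a ratio of 0.65 (0.16 to 1.97) and Vegfa (6 and 14 UMIs) one of 1.25 (0.39 to 3.46). In the whole libraries Bnip3 was level between the genotypes, at 57.4 CPM in slie/slie injured and 57.5 CPM in control injured cells (ratio 1.00, 0.74 to 1.34), with the neutrophil-like and keratinocyte-like sums on opposite sides.

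The Bnip3 difference was present in both neutrophil-like clusters. In one it had 461 CPM in slie/slie and 142 CPM in control cells (12 and 19 UMIs), and in the other 416 and 157 CPM (21 and 14 UMIs). Of other hypoxia response targets, 10 of 25 were counted as higher in slie/slie neutrophil-like cells and 1 as lower, with a median log2 ratio of 0.77 against -0.22 over all genes. Those with most UMIs were Gapdh (384 and 593 UMIs, 1.89-fold higher), Slc16a3, a lactate exporter (131 and 190 UMIs, 2.01-fold), Eno1, an enolase of glycolysis (63 and 107 UMIs, 1.72-fold), and Tpi1, triosephosphate isomerase (47 and 65 UMIs, 2.11-fold). Pfkfb4, a regulator of glycolytic flux, was the lower one, with 3 and 37 UMIs.

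The 2 neutrophil-like clusters were unequally mixed, with 15 and 27 slie/slie against 100 and 47 control cells. Taken alone, 5 of 20 targets were higher in slie/slie cells of the first (median 0.52, against -0.05 over all genes), where 3.78% of 2194 genes were higher. In the second 4 of 23 were higher and 1 lower (median 0.42, against -0.01), where 8.58% of 1434 genes were higher and 7.60% lower. Slie/slie neutrophil-like cells had a median of 1664 UMIs and control ones of 1215. Less than 0.5% mitochondrial UMIs were found in 90.5% of slie/slie and 85.0% of control neutrophil-like cells, 38 of 42 and 125 of 147, so too few others were left to compare. Of the dissociation list, Ier3 was 2.47-fold and Egr1 2.31-fold higher in slie/slie cells, while Fos had a ratio of 0.62, and their part in these differences was not tested. Against the other cells of its own library, Bnip3 in neutrophil-like cells was 16.1-fold higher in the slie/slie injured library and 2.83-fold higher in the control injured library, where 10.3% and 12.2% of genes were counted as higher in this class.

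**Figure D3:**
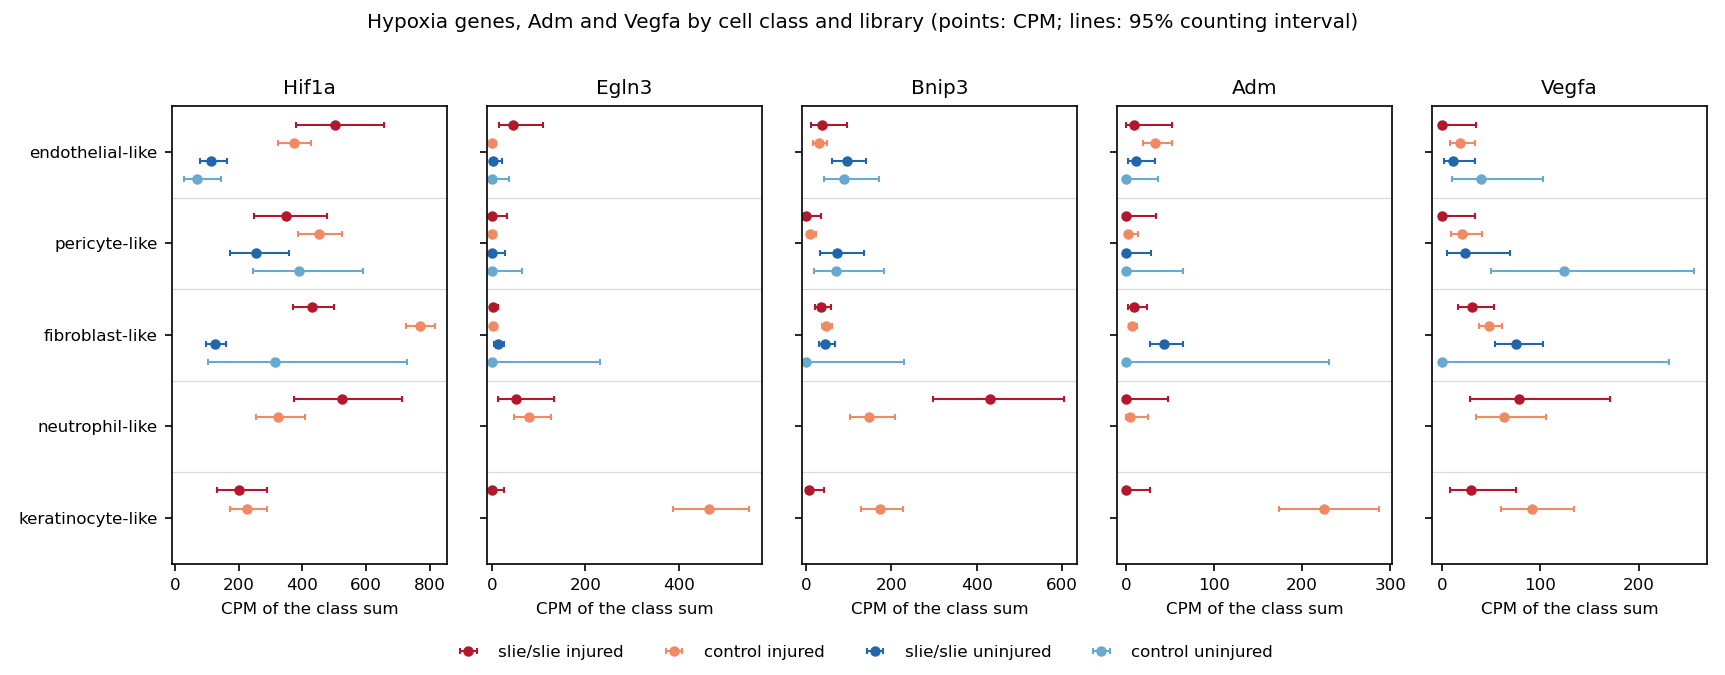
Levels of Hif1a, Egln3, Bnip3, Adm and Vegfa (1 panel each) by cell class and library; points are CPM of class sums on a linear axis and lines are exact Poisson 95% intervals; classes with fewer than 5 cells in a library are not drawn. Bnip3 is higher in slie/slie than control injured neutrophil-like cells, and Egln3 and Adm are high in control injured keratinocyte-like cells with no UMI in slie/slie ones.

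Vegfa (chr17:46016993-46032369) had 24 UMIs in slie/slie injured cells (23.7 CPM) and 195 in control injured cells (48.4 CPM), 2.04-fold lower in slie/slie cells (1.33 to 3.26), with 43.8 CPM in slie/slie uninjured and 49.4 CPM in control uninjured cells. The slie/slie injured library had the lowest level, and its interval overlapped those of both uninjured libraries. Overlap does not show equal levels, and by its ratio Vegfa was counted as lower in slie/slie injured than slie/slie uninjured cells. Several classes carried it. In the control injured library 69 UMIs lay in fibroblast-like cells, 67 in 33 of 114 monocyte or macrophage-like cells (87.5 CPM), 26 in keratinocyte-like and 14 in neutrophil-like cells. In the slie/slie injured library 13 of the 24 lay in fibroblast-like and 6 in neutrophil-like cells, and the library had 16 monocyte or macrophage-like cells. The richest control cell, fibroblast-like, held 28 UMIs, and without the richest cell of each library the difference was 2.08-fold. Vegfa turned direction where deep cells weighed less: its log2 ratio was 0.80 with cells thinned to 500 UMIs and 0.61 with every cell given equal weight.

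Among the other VEGF family genes, of 6 measurable 1 was counted as higher in slie/slie than control injured cells, Vegfb (39 and 102 UMIs, 1.53-fold), and 1 as lower, Nrp2, a co-receptor of the lymphatic ligand Vegfc (59 and 446 UMIs, ratio 0.53). Beside this and the next lists, 7.06% of all genes were counted as higher and 6.68% as lower. Over all cells, 3 of 35 hypoxia response targets were counted as higher and 6 as lower, with a median log2 ratio of -0.07 against -0.0038. The higher ones were Pgk1 (1.71-fold), Slc16a3 (1.65-fold) and Car12 (2.18-fold), and the lower ones included Hmox1, heme oxygenase (89 and 774 UMIs), Plod2 (84 and 515), and Ndrg1, a stress-response gene (41 and 285). Of 6 genes of oxygen sensing, 1 was counted as lower, Epas1, the HIF2 alpha gene strongly used by endothelial cells, with 34 and 210 UMIs (33.6 and 52.1 CPM), and 0 as higher. With every cell given equal weight the counts of targets were 5 higher and 2 lower.

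**Figure D4:**
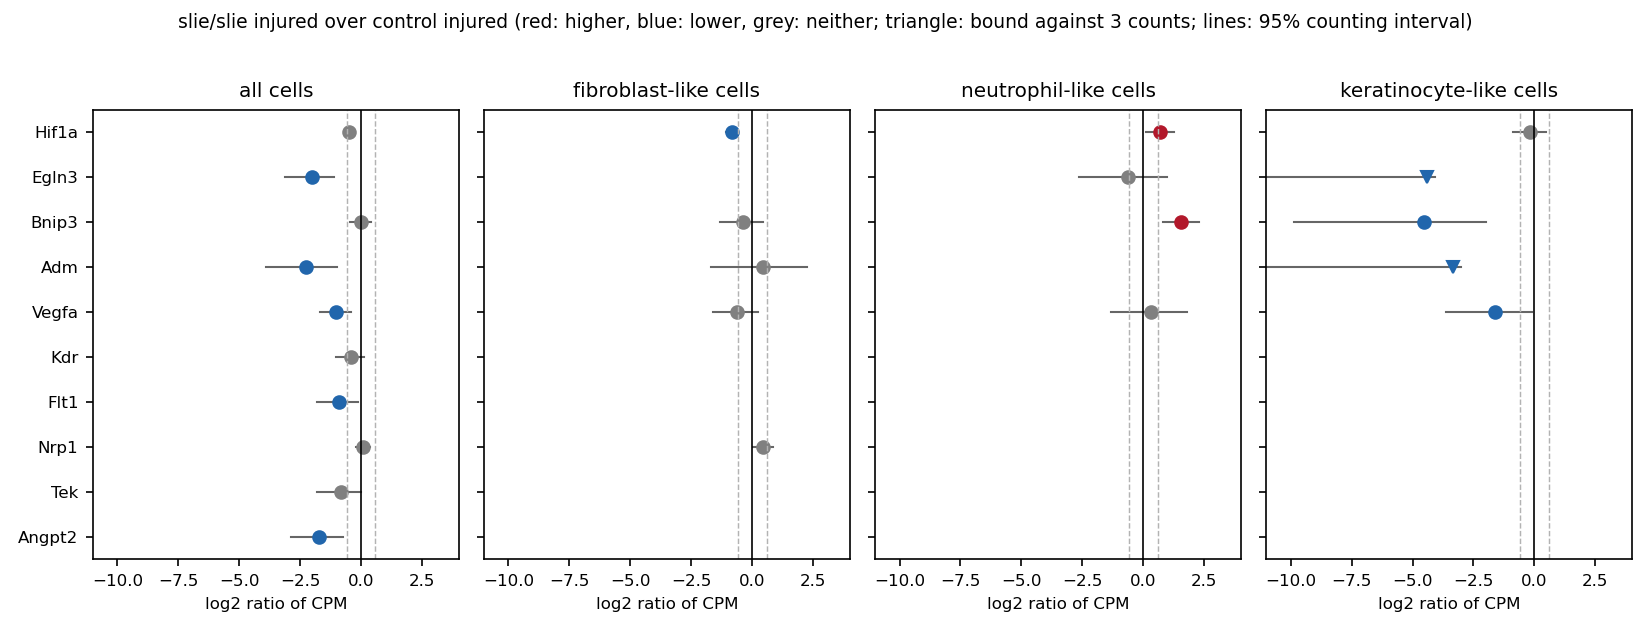
Log2 ratio of slie/slie injured over control injured CPM for each gene, over all cells and within fibroblast-like, neutrophil-like and keratinocyte-like cells, with exact 95% intervals of counting error. Triangles are ratios set against 3 counts where slie/slie cells had 0 UMIs, and lines that would run on end at the axis limit. Dashed lines mark 1.5-fold, and genes with fewer than 10 UMIs over both libraries are not drawn. Hif1a is below 0 in fibroblast-like and above 0 in neutrophil-like cells, and Bnip3 is above 0 in neutrophil-like and below 0 in keratinocyte-like cells.

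The receptors were carried by endothelial-like cells. In the control injured library Kdr (chr5:75932827-75978458) had 159 UMIs in 21 of 26 endothelial-like cells, 128-fold higher than in the other cells (63.4 to 302). Tek (chr4:94739289-94874976) had 90 UMIs there, 193-fold higher (64.0 to 955), and Flt1 (chr5:147561604-147726011) 83 UMIs, 17.2-fold higher. Nrp1 (chr8:128358604-128503363), found in many mesenchymal cells too, was 2.05-fold higher, and Angpt2 25.5-fold or, without its richest cell, 11.4-fold. Of the genes of this library 18.4% were counted as higher in endothelial-like cells. As background, Kdr had UMIs in 2 of 147 control injured neutrophil-like cells, at a median of 1215 UMIs a cell against 17632.5 in the endothelial-like cells, and in 0 of 38 keratinocyte-like cells. In the same library 6 of the 10 genes were counted as lower in fibroblast-like than in the other cells, 6 in pericyte or smooth muscle-like, 3 in endothelial-like and 6 in neutrophil-like cells, where 21.8%, 11%, 15.1% and 26.6% of genes were lower in that order. Of these, 4 turned direction under another processing: Flt1 in fibroblast-like cells (6 UMIs, log2 ratio 0.21 with equal weights), Vegfa in pericyte or smooth muscle-like cells (8 UMIs, 0.11 when thinned), Kdr in neutrophil-like cells (2 UMIs, 0.23 when thinned) and Bnip3 in endothelial-like cells (16 UMIs, 0.060 without cells under 0.5% mitochondrial UMIs).

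In the slie/slie uninjured library, with 53 endothelial-like cells, the ratios were smaller for Kdr and Tek: Flt1 was 16.6-fold, Kdr 5.96-fold, Tek 4.82-fold and Nrp1 2.40-fold higher than in the other cells, where 11.3% of genes were counted as higher. This library had endothelial transcripts in other classes. Its fibroblast-like cells held 1952 CPM of summed endothelial markers, against 130 CPM in slie/slie injured, 142 CPM in control injured and 1188 CPM in control uninjured fibroblast-like cells. Single cells of other classes carried several receptors together, such as a Schwann or glial-like cell of 16992 UMIs with 10 UMIs of Kdr, 6 of Flt1, 6 of Nrp1 and 4 of Tek, and a pericyte-like cell of 6483 UMIs with 7 of Kdr, 6 of Flt1, 6 of Nrp1 and 1 of Tek. Of these cells' mixed transcripts, the part due to doublets or free RNA was not tested.

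Levels of the receptors per endothelial-like cell sum were lower for Flt1 and Nrp1 in both injured libraries. Flt1 had 93.2 CPM in slie/slie injured (10 UMIs), 153 CPM in control injured (83 UMIs), 478 CPM in slie/slie uninjured (126 UMIs) and 529 CPM in control uninjured cells (53 UMIs). Nrp1 had 149, 218, 501 and 359 CPM in the same order, and Kdr 270, 293, 421 and 200 CPM. Tek did not follow the injury, with 103 and 166 CPM in slie/slie and control injured cells against 122 and 180 CPM in slie/slie and control uninjured cells. Only 5 slie/slie injured and 17 control uninjured endothelial-like cells were found, so no fold is given. The control injured sum also had UMIs of all 6 lymphatic endothelial markers (162 CPM), with 0 or 1 marker detected in the other libraries. The part of lymphatic cells in these levels was not tested. The endothelial-like cells of the injured limbs were far deeper, with medians of 25649 and 17632.5 UMIs in slie/slie and control cells against 3093 and 1635 UMIs in the uninjured limbs, and the part of this in the levels was not tested.

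Over all cells Flt1, Kdr and Tek were lower in the injured libraries, beside the lower share of endothelial-like cells given above. That share counts cells, whereas CPM weights cells by their UMIs. Endothelial-like cells had medians of 25649 and 17632.5 UMIs in the slie/slie and control injured libraries, against 3093 and 1635 in the uninjured ones. Their share of UMIs was therefore not lowered as far as their share of cells. The part of cell composition in these differences was not tested. Flt1 had 14.8 CPM in slie/slie injured and 137 CPM in slie/slie uninjured cells (9.21-fold lower), and 28.3 CPM in control injured and 218 CPM in control uninjured cells (7.72-fold lower). Kdr was 5.05-fold lower in slie/slie injured than slie/slie uninjured cells and 2.39-fold lower in control injured than control uninjured cells, and Tek 3.76-fold and 3.39-fold. Between the injured libraries Flt1 was 1.90-fold lower in slie/slie cells (1.11 to 3.52, with 15 and 114 UMIs), while Kdr (30.7 and 41.4 CPM, ratio 0.74, 0.49 to 1.09), Tek (12.9 and 23.1 CPM, 0.56, 0.29 to 1.00) and Nrp1 (129 and 121 CPM, 1.06, 0.87 to 1.29) were not counted.

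**Figure D5:**
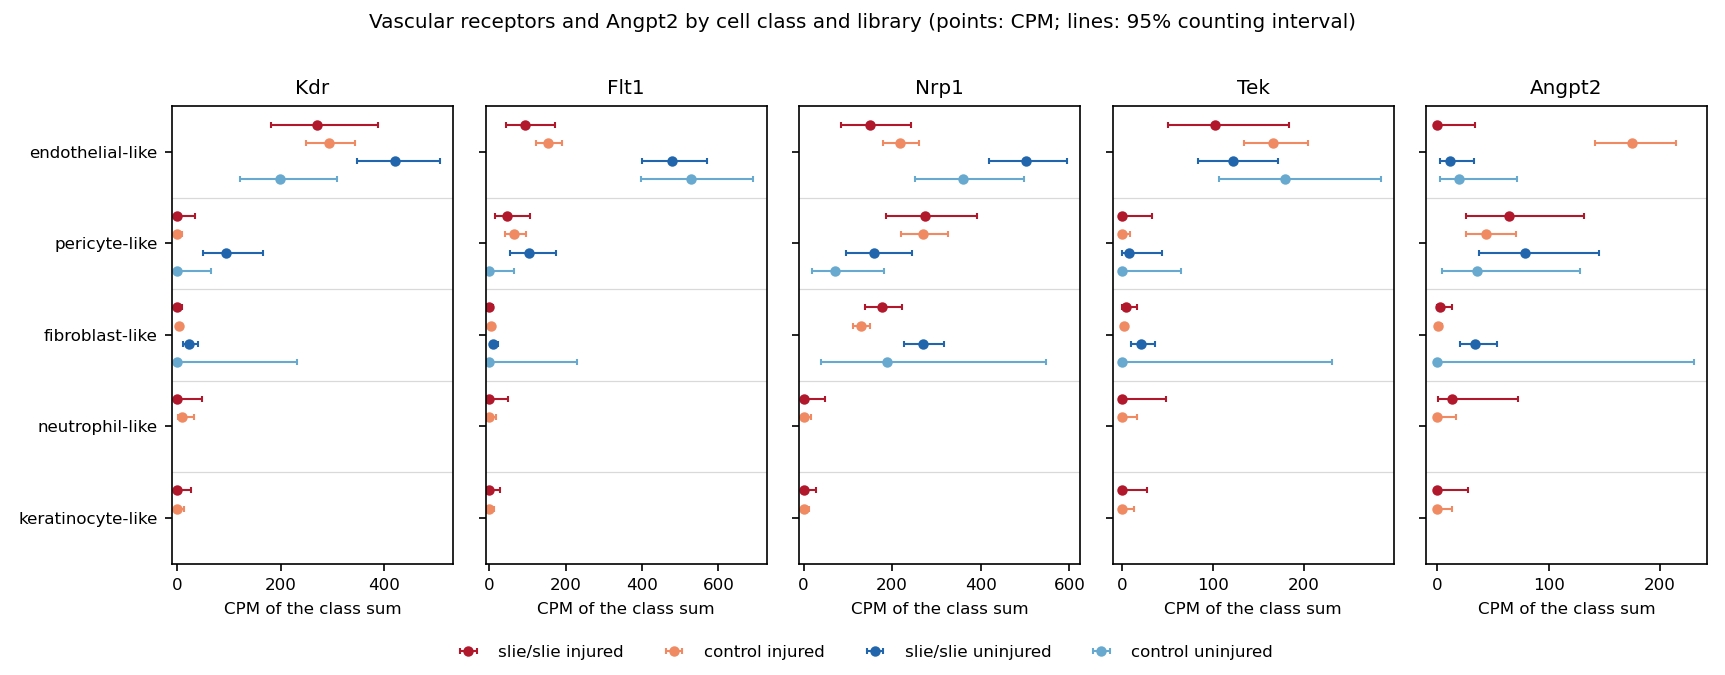
Levels of Kdr, Flt1, Nrp1, Tek and Angpt2 (1 panel each) by cell class and library; points are CPM of class sums on a linear axis and lines are exact Poisson 95% intervals; classes with fewer than 5 cells in a library are not drawn. Kdr, Flt1 and Tek are highest in endothelial-like cells, Nrp1 is spread over fibroblast-like and pericyte-like cells, and Angpt2 is high in control injured endothelial-like cells.

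Nrp1 differed from the other receptors in its breadth. Fibroblast-like cells held 75 of 130 slie/slie injured and 187 of 488 control injured UMIs, 177 and 130 CPM, a ratio of 1.36 (1.03 to 1.79). Pericyte or smooth muscle-like cells had 274 CPM in the slie/slie injured, 270 CPM in the control injured, 158 CPM in the slie/slie uninjured and 71.0 CPM in the control uninjured library, from 30, 104, 20 and 4 UMIs. In control injured monocyte or macrophage-like cells 74 UMIs were found, 40 of them in 17 of 30 cells of one cluster. Flt1 was also seen in pericyte-like cells, with 5 UMIs in 1 slie/slie injured cell and 25 UMIs in 14 of 54 control injured cells, in which Kdr and Tek had 0 UMIs.

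Angpt2 (chr8:18690263-18741562) had 9 UMIs in slie/slie injured cells (8.90 CPM) and 119 in control injured cells (29.5 CPM), 3.31-fold lower in slie/slie cells (1.69 to 7.43). Its source was largely endothelial in the control injured limb, with 95 UMIs in 11 of 26 endothelial-like cells, of which 64 lay in 1 cell of 46606 UMIs and 31 in the other 10. The 5 slie/slie injured endothelial-like cells held 0 UMIs, at a depth at which 3 counts are 28.0 CPM, against 175 CPM in the control injured cells, 11.4 CPM in slie/slie uninjured cells (3 UMIs) and 20.0 CPM in control uninjured cells (2 UMIs). These classes were not alike: the control injured one also held 88 UMIs of lymphatic endothelial markers, against 1, 0 and 1 in the others. Lymphatic endothelial-like cells formed a cluster of their own with slie/slie uninjured (5) and control uninjured (10) cells only. The part of lymphatic cells in the Angpt2 level was not tested. Pericyte or smooth muscle-like cells had 7 UMIs (64.0 CPM) in the slie/slie injured and 17 UMIs (44.1 CPM) in the control injured library. Without the richest cell of each library the difference over all cells was 2.76-fold. Beside Angpt2, 2 of 3 other genes of the Tie system were counted as lower in slie/slie than control injured cells and 0 as higher: the receptor Tie1 (19 and 124 UMIs) and the Tek phosphatase Ptprb (21 and 170 UMIs). Over all genes 6.68% were lower and 7.06% higher. These are sums over all cells, of which endothelial-like cells made up, by number and not by UMIs, 2.03% in the slie/slie and 3.46% in the control injured library.

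Of 23 other genes of vascular growth and guidance, 1 was counted as higher in slie/slie injured than control injured cells and 4 as lower, with a median log2 ratio of 0.08. Over all genes 7.06% were higher and 6.68% lower. The higher gene was Efnb2, an arterial ephrin (39 and 84 UMIs, 1.85-fold). The lower genes were Cxcl12, a chemokine made by stromal cells (241 CPM in slie/slie and 661 CPM in control cells), S1pr1, a sphingosine phosphate receptor of endothelial cells (35.6 and 82.8 CPM), Sema3f, a guidance ligand (5 and 63 UMIs), and Esm1, a marker of endothelial tip cells (0 and 55 UMIs).

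Injury was compared within each genotype, and these comparisons use the same injured libraries as above. In slie/slie cells, 1 of the 10 genes was counted as higher in the injured than the uninjured limb, Hif1a, and 7 as lower, all but Egln3 and Bnip3, where 14.3% of 11239 genes were higher and 15.5% lower. Adm was 5.53-fold, Angpt2 3.28-fold, Nrp1 2.17-fold and Vegfa 1.84-fold lower, the last turning to a log2 ratio of 0.15 with thinned and 0.96 with equally weighted cells. In control cells, Hif1a and Egln3 were counted as higher and Adm, Kdr, Flt1 and Tek as lower in the injured than the uninjured limb, where 10.9% of 12416 genes were higher and 12.9% lower. The Egln3 ratio was 9.76 (1.73 to 388, from 162 and 1 UMIs) and was not counted without the richest cells. Adm was 2.94-fold lower, and 1.45-fold lower without the richest cells, under the limit of 1.5-fold.

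Of the hypoxia response targets other than the 10 genes, more were counted as higher than as lower in the injured limbs. Over all genes, 14.3% were higher and 15.5% lower in slie/slie cells, and 10.9% and 12.9% in control cells. In slie/slie cells 16 of 34 were counted as higher in the injured limb and 1 as lower (median log2 ratio 0.87, against -0.03 over all genes), and in control cells 17 of 35 as higher and 3 as lower (1.11, against -0.15). In both, Ldha (469 CPM in slie/slie injured and 267 CPM in slie/slie uninjured cells, 519 CPM in control injured and 165 CPM in control uninjured cells) and Mif (493 and 234 CPM, 452 and 111 CPM) were among the higher ones, and Ndrg1 (40.6 and 196 CPM, 70.7 and 243 CPM) among the lower. Cell classes differed too: neutrophil-like cells numbered 42 and 147 in the slie/slie and control injured libraries and 3 and 0 in the slie/slie and control uninjured ones.

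Fibroblast-like cells could be compared within slie/slie mice. There Hif1a was 3.42-fold higher in the 115 injured than in the 72 uninjured cells (2.57 to 4.60, with 431 and 126 CPM). Adm was 4.56-fold, Vegfa 2.44-fold, Nrp1 1.52-fold and Angpt2 14.3-fold lower. Kdr, with 0 and 12 UMIs, was 3.17-fold lower set against 3 counts. Of 8346 genes 13.1% were higher and 10.9% lower. The count of genes was 6, against 3 without the 3 deepest cells and 1 when thinned. The Angpt2 value rests on 1 UMI in injured and 18 in uninjured cells, 9 of them in 1 cell, and without the richest cells it was at least 2.43-fold lower. The injured and uninjured cells lay in different clusters, since 62 of the 72 uninjured cells formed one cluster that held 1 slie/slie injured cell. Of 29 hypoxia response targets 14 were higher and 3 lower (median log2 ratio 0.66, against 0.07), among them Lox, a collagen crosslinking enzyme (648 CPM in injured and 118 CPM in uninjured cells). The lower Kdr count stands beside a fall in summed endothelial markers to 130 CPM in injured fibroblast-like cells, against 1952 CPM in uninjured ones, and the part of free RNA was not tested. Adm differed from Kdr in its source. In the slie/slie uninjured library it had 43.2 CPM in fibroblast-like cells (23 UMIs) and 11.4 CPM in endothelial-like cells (3 UMIs).

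Between the uninjured limbs, 2 of the 10 genes were counted as higher in slie/slie than control cells and 2 as lower, where 7.97% of 9792 genes were higher and 6.88% lower. Kdr had 155 CPM in slie/slie and 98.8 CPM in control cells (1.57-fold higher, 1.02 to 2.52), and Nrp1 279 and 181 CPM (1.54-fold, 1.12 to 2.16). Flt1 had 137 CPM in slie/slie and 218 CPM in control cells (1.60-fold lower, 1.14 to 2.20), and Adm 27.3 and 70.0 CPM (2.56-fold lower, 1.32 to 4.79). None of these stood under every processing: the Adm log2 ratio was 0.46 without the richest cells, and that of Flt1 was 0.60 with thinned cells, 0.57 with equal weights and 0.02 with all barcodes. The control uninjured library had 60 cells after filtering from 1075 barcodes, and 10.1% of its UMIs were haemoglobin, against 1.15% in the slie/slie uninjured library.

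Across the 14 sums of class by library with at least 20 cells, the likeness of other genes to the members was described by Pearson's r of log2(CPM + 10), over 6760 genes. The points share libraries and differ in depth, and no test was made. Nearest to Kdr were Ptprb (0.98), Gpihbp1, the capillary anchor of lipoprotein lipase (0.97), and Egfl7 (0.97). Nearest to Flt1 were Adgrf5 (0.98), Esam (0.96) and Tcf15 (0.96), and nearest to Nrp1 Tspan4 (0.96), Pde6d (0.96) and Rab12 (0.95). The hypoxia genes had looser neighbours: Vegfa had Cstb (0.86), Txn1 (0.85) and the glycolytic enzyme Pgam1 (0.84), Bnip3 Wdr44 (0.84), Fbxo4 (0.81) and Oser1 (0.81), and Hif1a Tab2 (0.83), Rnf19b (0.82) and Isg20l2 (0.81). Egln3 had Stfa2 (0.89), Gm5416 (0.82) and Slc2a1 (0.79), and Adm Sprr2h (0.80), Sprr2d (0.77) and 2310046K23Rik (0.75), of which the Sprr2 genes encode envelope proteins of keratinising cells.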

How the data were processed

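The values in the deposited matrices are raw UMI counts, written by Cell Ranger 5.0.1 per the file headers, with the mm10 build per the labels. No normalisation was applied to the deposited counts. A barcode stayed in when it had 200 or more detected genes and no more than 20% of its UMIs were mitochondrial. Cells of all libraries were clustered together without integration (scanpy 1.11.5, leidenalg 0.10.2, Python 3.11.15): 2000 variable genes without the 10 members, 30 principal components, 15 neighbours, resolution 1. Clusters were named from marker lists. Scrublet called 3, 1, 0 and 11 doublets in slie/slie injured, slie/slie uninjured, control injured and control uninjured cells, and these were kept. UMIs were summed per library and class, with CPM, intervals and ratios computed with scipy 1.17.1. Classes with fewer than 20 cells in either library were given as counts and CPM with no fold. The members and the lists were chosen with earlier results of these data known. Every member is named; genes of other lists are named where counted as higher or lower, at most the 4 with most UMIs per list, direction and comparison (1 such gene is not reported here), and the 3 nearest genes by correlation for 8 members. With 1 library a group there is no replicate and no test. Intervals cover counting error only. Coordinates are those of mm10. Alternatives changed the cell filter, doublets, depth, weighting, clustering and fold. The counting was tested on simulated data.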

Additional observations from a re-analysis of the deposited data

How the results depend on the processing

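The 93 ratios counted as higher or lower were recomputed under each alternative, which gave 1108 values, of which 21, for 12 ratios, turned direction. Of the counts, 149 values stayed within 1.5 times the reported count and 49 did not. The following were chosen after seeing the data: leaving out the cell of each library with most UMIs of the gene, and the hypoxia target list without 1 deep keratinocyte-like cell or by neutrophil-like cluster. With cells weighted equally there is no counting interval and the 1.5-fold limit alone applies. Between the injured genotypes, 0 genes higher became 2 with equal weights. The 5 lower became 8 with all barcodes and 0 at 500 UMIs a cell. With all barcodes haemoglobin was 33.3% of slie/slie injured and 15.5% of control injured UMIs. The hypoxia targets, 3 higher and 6 lower, became 5 and 2 with equal weights. The Vegfa log2 ratio became 0.80 (thinned) and 0.61 (equal weights).

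Between the uninjured genotypes, 2 genes higher became 0 at a minimum of 500 genes, without cells under 0.5% mitochondrial UMIs, without haemoglobin in the totals, without the 3 deepest cells and at 2-fold, and 1 at 10% mitochondrial UMIs, when thinned, without called doublets and with 1 count added. The 2 lower became 0 with all barcodes, when thinned and without the richest cell, and 1 without doublets, without the 3 deepest cells and at 2-fold. The log2 ratio of Adm became 0.46 without the richest cell, and that of Flt1 0.021 with all barcodes, 0.60 when thinned and 0.57 with equal weights. By injury in slie/slie cells, 1 higher became 3 with equal weights, 7 lower became 3 when thinned, and the Vegfa log2 ratio became 0.15 (thinned) and 0.96 (equal weights). By injury in control cells, 2 higher became 4 with all barcodes and 1 without low-mitochondrial cells, when thinned or without the richest cell, and 4 lower became 2 with all barcodes and 1 when thinned.

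Within classes between the injured genotypes, 1 counted gene in fibroblast-like cells became 3 with equal weights and 2 without the 3 deepest cells. In neutrophil-like cells 2 became 0 without low-mitochondrial cells, a setting that removes 38 of 42 slie/slie and 125 of 147 control cells and so says nothing of stability, and 1 when thinned, without the 3 deepest cells or without the richest cell. In keratinocyte-like cells 4 became 2 without low-mitochondrial cells (21 of 25 slie/slie and 31 of 38 control cells removed) or the richest cell, and 0 when thinned or without the 3 deepest cells. By injury in slie/slie fibroblast-like cells 6 became 1 when thinned and 3 without the 3 deepest cells. The 10 hypoxia targets higher in neutrophil-like cells became 5 and 4 in the clusters taken alone.

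Within libraries, the 5 genes higher in endothelial-like cells became 1 in the control injured and 3 in the slie/slie uninjured library when thinned. The 4 higher in control injured keratinocyte-like cells became 2 without low-mitochondrial cells, with equal weights or without the richest cell, 0 when thinned and 1 without the 3 deepest cells. The log2 ratio of Bnip3 against other cells became -0.63 (thinned), -1.19 (equal weights), -2.87 (without the 3 deepest) and -1.09 (without the richest) in those cells, 0.060 in control injured endothelial-like cells without low-mitochondrial cells, and -1.02 (thinned) and -0.21 (equal weights) in slie/slie uninjured endothelial-like cells. That of Vegfa became -0.30 (equal weights) and -1.16 (without the 3 deepest) in control injured keratinocyte-like, 0.11 (thinned) in control injured pericyte-like and -0.42 (thinned) in slie/slie injured neutrophil-like cells. Flt1 became 0.21 (equal weights) in control injured fibroblast-like and Kdr 0.23 (thinned) in control injured neutrophil-like cells. Thinning keeps fewer UMIs and left 82 ratios with no value. The cause of the other changes was not tested.

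Depth limits all genes with few UMIs, and at 5 slie/slie injured endothelial-like cells the level of Angpt2 there is known only as under 28.0 CPM by the limit of 3 counts. The 2 pooled mice of a library cannot be separated. No paired analysis was possible because each group is 1 library and no result comes from a test.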
